A study of Mus musculus with 8 samples.

Results

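The 9 genes described here are regulators and markers of trophoblast, the outer lineage of the early embryo that builds the placenta: Ascl2, Gcm1, Hand1, Plac1, Phlda2, Ceacam13, Elf5, Tfap2c and Cdx2. They were found on the array by the transcript accession each probe carries, matched to a mouse gene table, which gave 13 probes among 55681 and 9 genes among 19897 with a symbol. The 9 genes were chosen by an earlier look at their knockout and control values on these arrays, so their differences between genotypes are a description: calls among them are listed below but test nothing. The gene lists below were also chosen with earlier results of these data known, so their genotype calls and adjusted p-values are a description too. A probe was used where both arrays of some group were well above background; 10 of the 13 were, and they stood for 7 of the 9 genes, leaving out Elf5 and Cdx2. Ceacam13 passed through its control day 9 arrays alone, so that a lower knockout value is built into its inclusion.

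The cells were motor neurons grown from male mouse embryonic stem cells of an Hb9-GFP line. Cells with a Litchi knockout and their controls, sampled on day 7 and on day 9, were each hybridised to 2 arrays per day, 8 arrays in all, on a 1-colour Agilent SurePrint G3 mouse expression design. All groups went through embryoid bodies, received retinoic acid and Sonic hedgehog on days 2 to 5, were broken up into a cell suspension on day 5, and had GDNF from then on. Neither the number of knockout clones nor the origin of the replicates is given by the labels, so a p-value here reflects only how far these arrays spread, which could be technical.

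In the early mouse embryo Cdx2, Elf5 and Tfap2c maintain the trophoblast stem cell state, Ascl2 sustains the spongiotrophoblast, Hand1 drives giant cell differentiation and Gcm1 starts the branching of the labyrinth and the syncytiotrophoblast. Plac1 is an X-linked gene made mainly in placenta, Phlda2 is an imprinted gene that limits placental growth, and Ceacam13 belongs to the large carcinoembryonic antigen family that mouse placenta expresses. Several of them act in other tissues too: Hand1 in heart, Ascl2 and Cdx2 in intestine, Tfap2c in germ cells, skin and breast.

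Promoter windows are shown for 4 genes that were lower in the knockout on both days, among them the imprinted pair Ascl2 and Phlda2 and the gene whose change between days passed the test, Plac1, with its 2 start sites. The sequences come from RefSeq on GRCm38.p6, run 5′ to 3′ on the gene's own strand, and cover 250 bases before to 50 bases after the start. Capitals mark a match to the AP-2 motif GCCNNNGGC, the kind of site that Tfap2c and its relatives bind; it was found in the Phlda2 window and in none of the other 4 shown. The Ascl2 window is chr7:142969215-142969514 (minus strand), Phlda2 chr7:143502475-143502774 (minus), Ceacam13 chr7:18009639-18009938 (plus), Plac1 start 1 chrX:53240061-53240360 (minus) and Plac1 start 2 chrX:53114356-53114655 (minus).
Ascl2: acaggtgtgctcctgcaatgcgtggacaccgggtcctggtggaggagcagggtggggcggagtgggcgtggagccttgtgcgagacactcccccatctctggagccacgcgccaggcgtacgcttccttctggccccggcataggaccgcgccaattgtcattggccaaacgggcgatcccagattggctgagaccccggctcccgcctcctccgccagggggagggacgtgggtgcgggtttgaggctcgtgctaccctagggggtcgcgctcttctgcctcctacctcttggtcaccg
Phlda2: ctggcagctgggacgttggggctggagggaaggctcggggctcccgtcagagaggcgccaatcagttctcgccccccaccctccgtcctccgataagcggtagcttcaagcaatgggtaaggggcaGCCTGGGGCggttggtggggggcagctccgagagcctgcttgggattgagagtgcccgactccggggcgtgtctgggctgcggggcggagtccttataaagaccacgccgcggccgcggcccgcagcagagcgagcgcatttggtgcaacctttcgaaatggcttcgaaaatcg
Ceacam13: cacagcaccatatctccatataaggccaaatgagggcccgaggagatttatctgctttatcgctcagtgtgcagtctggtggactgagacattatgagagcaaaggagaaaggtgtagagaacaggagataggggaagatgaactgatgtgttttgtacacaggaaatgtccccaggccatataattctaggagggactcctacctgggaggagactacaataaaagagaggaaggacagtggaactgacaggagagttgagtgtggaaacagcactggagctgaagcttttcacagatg
Plac1 start 1: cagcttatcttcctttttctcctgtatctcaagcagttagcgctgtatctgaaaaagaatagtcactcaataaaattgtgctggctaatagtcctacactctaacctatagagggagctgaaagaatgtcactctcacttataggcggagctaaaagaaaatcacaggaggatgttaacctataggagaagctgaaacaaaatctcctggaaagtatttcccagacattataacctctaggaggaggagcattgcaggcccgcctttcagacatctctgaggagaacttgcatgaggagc
Plac1 start 2: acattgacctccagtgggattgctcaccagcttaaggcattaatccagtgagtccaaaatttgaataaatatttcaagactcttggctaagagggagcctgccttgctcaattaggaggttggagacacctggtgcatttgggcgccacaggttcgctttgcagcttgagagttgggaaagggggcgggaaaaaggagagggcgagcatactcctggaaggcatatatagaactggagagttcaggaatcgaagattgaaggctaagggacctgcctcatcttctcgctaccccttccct

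Ascl2, Phlda2 and Ceacam13 lie on chromosome 7, Elf5 and Tfap2c on chromosome 2, Cdx2 on chromosome 5, Gcm1 on chromosome 9, Hand1 on chromosome 11 and Plac1 on the X chromosome. Promoters of 7 of the 9 genes, in 9 windows of 300 bases, were in the RefSeq table. Searched on both strands, GCCNNNGGC stood in 2 of the 9 windows (Phlda2 and Cdx2), against 16.6% of all 32817 windows of that length. The E-box CANNTG, the site class of Ascl2 and Hand1, stood in 8 of 9 windows, against 72.3% of all. The Gcm1 motif ATGCGGG stood in 0 of 9, against 1.41%, and the Cdx2 motif TTTATNG in 2 of 9 (Ceacam13 and Plac1 start 1), against 10.9%. A match is a run of letters in the window and was not tested as a binding site.

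Across the 8 arrays the 75th percentile of the processed signal ran from 649 to 1691 intensity units, and 55.9% to 67.9% of spots were well above background. Replicate 1 was brighter than replicate 2 in all 4 groups. All levels below are log2 signal minus the array's own 75th percentile, so 0 means a signal at that percentile. Levels of different probes are not set against each other, apart from the summed signals of the epithelial and neuronal lists. Litchi was found 0 times among the gene names, so its level could not be set beside the genotype labels. The 13 motor neuron and neuron markers were all above the filter, and each was well above background on all 8 arrays.

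Tfap2c, a transcription factor of the AP-2 family that keeps trophoblast stem cells from differentiating, was well above background on all 8 arrays. Its level was -2.0 and -2.76 in knockout cells on day 7, against -0.67 and -1.15 in control cells. On day 9 it was -3.80 and -2.69 in knockout cells, against -1.02 and -1.95 in control cells. All 4 knockout arrays lay below all 4 control arrays, while the 2 days overlapped within each genotype. The knockout minus control change was -1.47 ± 0.49 (SE) on day 7 and -1.76 ± 0.49 on day 9. In these bulk samples fewer cells that express a gene and less of its RNA per cell cannot be told apart.

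The other stem cell factors were at the limit of detection. Elf5, an ETS factor that locks in the trophoblast fate, was not well above background on any of the 8 arrays, with measured values between -8.39 and -6.35. Cdx2, the caudal-type homeobox factor that sets up the trophectoderm, was well above background on 1 of 8 arrays, control day 7 replicate 1, at -6.00. Its other 7 values lay between -8.57 and -6.33, not well above background, so no change is given for either gene.

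Ascl2, a basic helix-loop-helix factor transcribed from the maternal allele in placenta, was at -2.61 and -3.13 in knockout cells on day 7, against -1.18 and -1.96 in control cells. The day 9 levels were -3.86 and -4.05 in knockout cells, against -2.01 and -3.13 in control cells. Control day 7 was the highest group and knockout day 9 the lowest; knockout day 7 and control day 9 overlapped. The change was -1.30 ± 0.42 on day 7 and -1.38 ± 0.42 on day 9. The day 9 value was -0.82 without control replicate 1 and -1.94 without control replicate 2.

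Hand1, a basic helix-loop-helix factor needed for giant cells, was at -4.89 and -4.15 in knockout cells on day 7, against -2.99 and -3.19 in control cells. On day 9 its levels were -5.54 and -5.42 in knockout cells, against -3.48 and -3.03 in control cells; the -5.42 of knockout replicate 2 was not well above background. The 4 control arrays lay close together on both days, and the 4 knockout arrays lay below all of them, with day 9 below day 7. The change was -1.43 ± 0.27 on day 7 and -2.22 ± 0.27 on day 9. The day 7 value was -1.06 without knockout replicate 1 and -1.79 without knockout replicate 2.

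Gcm1, the glial-cells-missing factor of syncytiotrophoblast and labyrinth, had 4 kept probes; the brightest stands for it and was well above background on all 8 arrays. That probe was at 6.87 and 6.99 in knockout cells on day 7, against 7.31 and 7.94 in control cells. On day 9 it was at 6.79 and 6.90 in knockout cells, against 7.54 and 7.21 in control cells. The 4 knockout arrays lay close together and below all 4 control arrays, and the days overlapped within each genotype. The change was -0.69 ± 0.24 on day 7 and -0.53 ± 0.24 on day 9. Without control replicate 1 the day 7 value was -1.01, and without control replicate 2 it was -0.37.

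Phlda2, whose protein is a pleckstrin-homology-like inhibitor of placental growth, was at -4.06 and -4.86 in knockout cells on day 7, against -2.58 and -3.47 in control cells. Its day 9 levels were -6.41 and -4.96 in knockout cells, against -3.95 and -4.74 in control cells, and the -6.41 of knockout replicate 1 was not well above background. Knockout day 9 was the lowest group, and knockout day 7 overlapped control day 9. The change was -1.44 ± 0.58 on day 7 and -1.33 ± 0.58 on day 9. The day 9 change was -0.61 without knockout replicate 1 and -2.06 without knockout replicate 2.

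Plac1, which encodes a secreted or membrane protein of trophoblast, was at -1.15 and -1.79 in knockout cells on day 7, against -0.55 and -0.99 in control cells. On day 9 its levels were -2.96 and -2.90 in knockout cells, against -2.15 and -2.63 in control cells. The groups did not overlap and ran in the order control day 7, knockout day 7, control day 9 and knockout day 9, from high to low. The change between genotypes was -0.70 ± 0.28 on day 7 and -0.54 ± 0.28 on day 9. The day 7 value was -0.38 without knockout replicate 2, and the day 9 value was -0.30 without control replicate 1.

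Ceacam13 was near the detection limit, and its kept probe was well above background on 3 of 8 arrays. It was measured at -7.60 and -7.07 in knockout cells on day 7, both not well above background, against -5.73 and -6.26 in control cells, of which the -5.73 was above. On day 9 the values were -8.58 and -7.64 in knockout cells, both not well above background, against -5.11 and -4.36 in control cells, both above. Set against the dimmest signals that were well above background, Ceacam13 was at least 2.11-fold lower in knockout than in control cells on day 9; no fold can be given for day 7. The fitted changes, -1.34 ± 0.41 on day 7 and -3.37 ± 0.41 on day 9, rest on knockout signals not well above background. A second Ceacam13 probe was not well above background on any array.

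**Figure D1:**
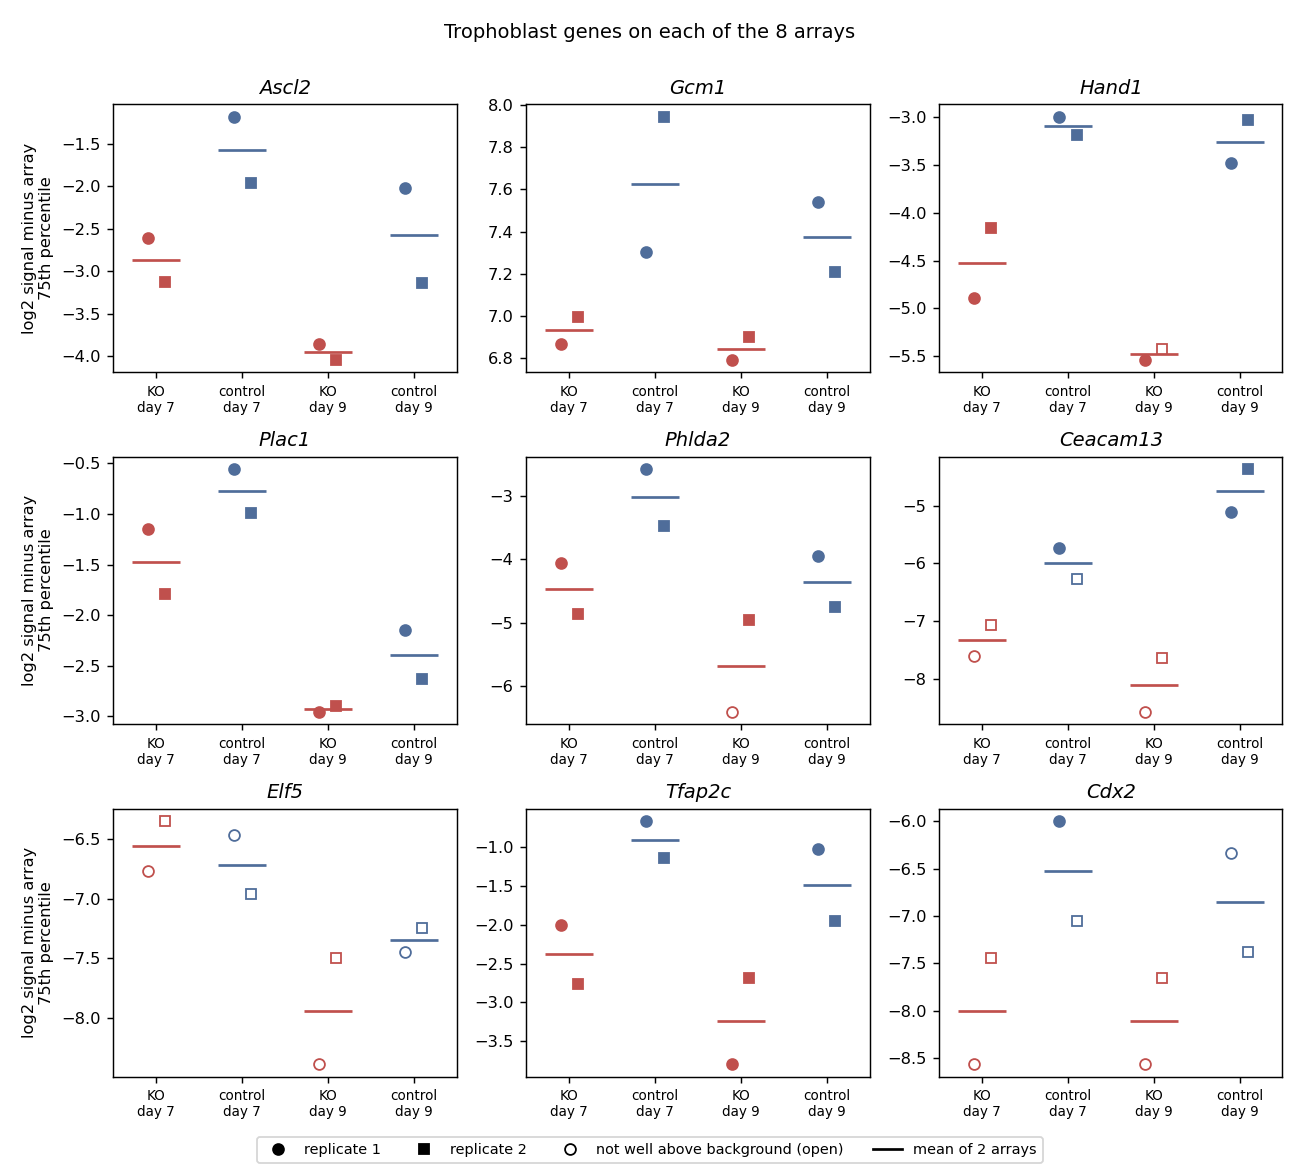
Log2 signal minus the array's 75th percentile (vertical axis, a separate scale in each panel) of the 9 genes on the 8 arrays, by genotype and day (KO is the knockout). Circles are replicate 1, squares replicate 2, open symbols are not well above background and lines are means of 2 arrays; in the 7 genes other than Elf5 and Cdx2 both knockout arrays lie below both control arrays on each day.

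All 7 kept genes had both knockout arrays below both control arrays on day 7 and again on day 9, as 27.8% and 32.5% of all genes had. With the days joined, 4 of the 7 (Gcm1, Hand1, Ceacam13 and Tfap2c) had all 4 knockout arrays below all 4 control arrays, as 8.61% of all genes had. Without Ceacam13 they are 3 of 6. Gcm1 is counted here by its brightest probe. Its probe A_55_P1989813 overlapped between genotypes with the days joined (knockout up to 1.79, control down to 1.41). So did its probe A_51_P130905 (knockout up to -5.94, control down to -5.99). The median change of the 7 was -1.34 on day 7, -1.38 on day 9 and -1.39 for the mean of both days, against -0.05, -0.02 and -0.04 over the 24632 genes tested. Since the genes were chosen with these contrasts known, nothing is read from those shares or from the counts that follow.

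With limma and a Benjamini-Hochberg adjusted p under 0.05, 0 of the 7 genes were called on day 7, where 0.215% of all genes were and 0.118% were called lower; at an unadjusted p under 0.05 all 7 were lower, where 18.9% of all genes passed and 11.9% were lower. On day 9 Hand1 and Ceacam13 were called (2 of 7, both lower, against 5.47% of all genes called and 3.96% called lower), and for the mean of both days Ascl2, Hand1, Ceacam13 and Tfap2c (4 of 7, all lower, against 14.8% called and 9.35% called lower). The calls of Ceacam13 also follow from how it passed the filter. Leaving out single arrays moved these counts to between 0 and 2 on day 9 and between 2 and 4 for the mean of both days. The share of higher genes among all called genes depended on the scaling. On day 7 it was 45.3% with the 75th percentile, 55.6% with quantile normalization and 58.5% with a shift to equal medians. For day 9 it was 27.5%, 37.0% and 69.6% in the same order, and for the mean of both days 37.0%, 48.2% and 73.4%. All 7 genes were lower in the knockout under each of these scalings.

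**Figure D2:**
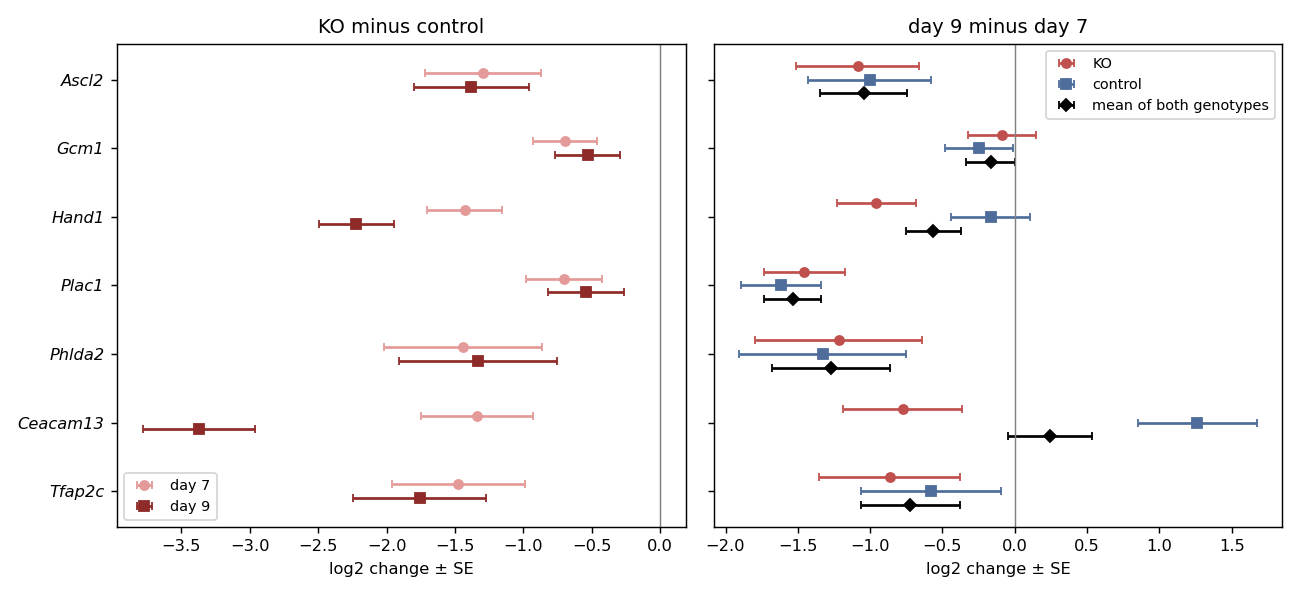
Log2 changes ± SE from the fit to all 8 arrays for the 7 kept genes, with knockout (KO) minus control on each day on the left and day 9 minus day 7 in knockout cells, control cells and their mean on the right. All left-hand values are below 0 and run from -3.37 to -0.53; on the right the mean of both genotypes is lowest for Plac1, at -1.54, and Ceacam13 is the one gene with opposite signs in the genotypes.

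The change from day 7 to day 9, averaged over both genotypes, is uncorrelated with the knockout minus control contrasts in this balanced design, and it was tested. Both kinds of contrast share each gene's estimate of spread, so the choice of the genes can still bear on the p-values of the day test. Plac1 fell by 1.54 ± 0.20 on the log2 scale (adjusted p = 0.00433, limma over all genes), the 1 call among 7 genes, against 21.2% of all genes called and 12% called lower. Its change was -1.46 ± 0.28 in knockout cells and -1.62 ± 0.28 in control cells, and all 4 day 9 arrays lay below all 4 day 7 arrays, as in 12.2% of all genes. The difference between those changes was 0.16 ± 0.39. None of the 7 genes was called for that difference (0 of 7, against 0.00406% of all genes), a contrast that shares its arrays with the choice of the genes.

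The other 6 genes did not pass that test. Ascl2 had -1.05 ± 0.30 (adjusted p = 0.0523), Phlda2 -1.27 ± 0.41 (adjusted p = 0.0710) and Hand1 -0.56 ± 0.19 (adjusted p = 0.0840). Tfap2c had -0.72 ± 0.34 (adjusted p = 0.179), Gcm1 -0.17 ± 0.17 (adjusted p = 0.500) and Ceacam13 0.24 ± 0.29 (adjusted p = 0.579). Ascl2 was called as well when control day 9 replicate 1 was left out, Hand1 when knockout day 7 replicate 1 was, and Phlda2 when knockout day 9 replicate 2 was. The median of the 7 was -0.72, against -0.12 over all genes. Higher genes made up 43.3% of all day calls with the 75th percentile, 51.7% with quantile normalization and 62.7% with a median shift, and Plac1 was called under each.

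The 4 Gcm1 probes did not behave alike. The 3 A_55 probes were well above background on all 8 arrays and their values correlated with each other (Pearson r between 0.84 and 0.94 over the 8 arrays, which share 4 groups). The fourth, A_51_P130905, was well above background on 4 of 8 arrays and had r between 0.06 and 0.40 with the bright ones. It was at -6.25 and -7.34 in knockout cells on day 7, against -5.79 and -5.99 in control cells. By day 9 it was at -5.94 and -6.49 in knockout cells, against -4.96 and -3.48 in control cells. Only -5.79, -5.94, -4.96 and -3.48 were well above background.

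The 4 probes shared the sign of the genotype difference but not its size, and A_55_P1989813 overlapped between genotypes on day 7 (1.38 and 1.79 in knockout cells, against 1.51 and 2.42 in control cells). For the mean of both days the 3 bright probes gave -0.61 ± 0.17, -0.63 ± 0.25 and -0.88 ± 0.18, and A_51_P130905 gave -1.45 ± 0.39. From day 7 to day 9 the bright probes gave -0.17 ± 0.17, -0.54 ± 0.25 and -0.24 ± 0.18, while A_51_P130905 gave 1.13 ± 0.39, of which the control cells had 1.67 ± 0.54. Which probe reports Gcm1 messenger RNA was not tested.

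**Figure D3:**
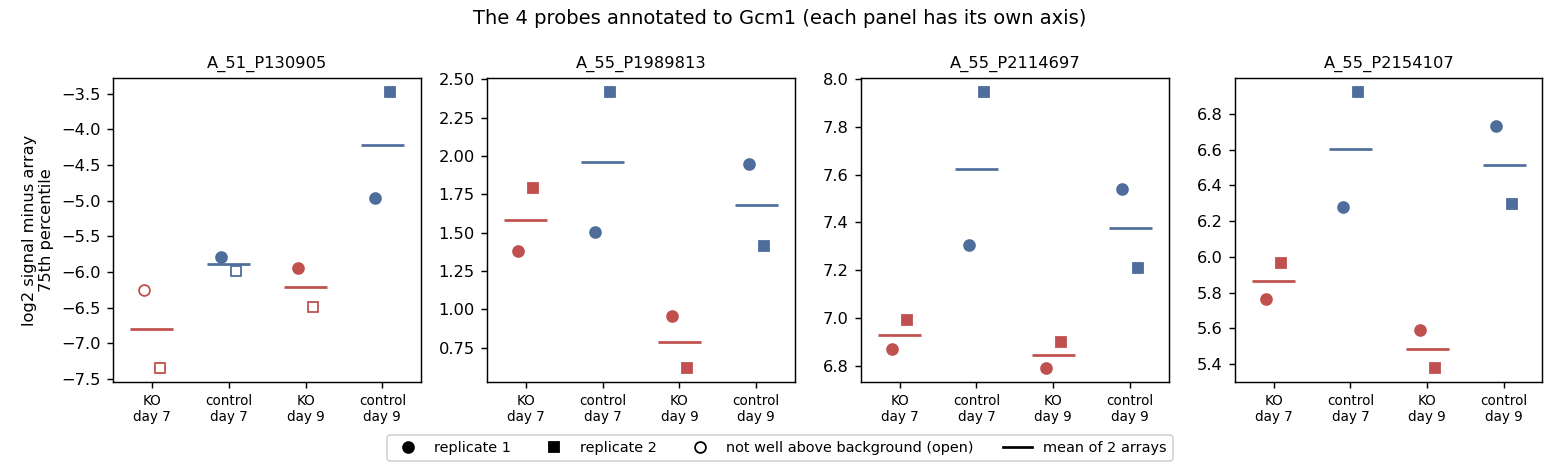
Log2 signal minus the array's 75th percentile (vertical axis, own scale per panel) for the 4 probes annotated to Gcm1, by genotype and day; symbols are as in the plot of the 9 genes. In each panel the control mean lies above the knockout mean on both days; A_55_P1989813 overlaps between genotypes on day 7, and A_51_P130905 is highest in control cells on day 9, at -4.96 and -3.48.

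Ascl2 and Phlda2 lie in the Kcnq1 imprinted domain of chromosome 7, where the maternal alleles of several genes are active and the long noncoding RNA Kcnq1ot1 is made from the paternal allele. Of 8 measured neighbours in that domain, 2 were called lower in the knockout for the mean of both days (against 9.35% of all genes) and 0 higher; Kcnq1 itself did not pass the filter. Cdkn1c, an inhibitor of cyclin-dependent kinases, was at 2.92 and 2.42 in knockout cells on day 7, against 4.83 and 4.84 in control cells. Its day 9 levels were 3.32 and 2.97 in knockout cells, against 4.76 and 4.31 in control cells. All 4 knockout arrays lay below all 4 control arrays, with a change of -1.78 ± 0.17 (adjusted p = 0.00617, limma).

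Slc22a18, a transporter gene next to Phlda2 in this order, was at -1.69 and -2.30 in knockout cells on day 7, against -0.09 and -0.43 in control cells. The day 9 arrays had -2.77 and -2.87 in knockout cells, against -1.05 and -1.54 in control cells. Its change was -1.63 ± 0.19 (adjusted p = 0.00858, limma). The other 6 neighbours did not pass: Kcnq1ot1 had 0.18 ± 0.09, Cd81 -0.10 ± 0.10, Tssc4 0.08 ± 0.11 and Nap1l4 0.09 ± 0.15. Osbpl5 had -0.26 ± 0.11 and Tspan32 -0.27 ± 0.10. The mean of Kcnq1ot1 joins -0.03 ± 0.13 on day 7 and 0.39 ± 0.13 on day 9. With a median shift Kcnq1ot1 was called higher on day 9 and for the mean of both days. Along the chromosome the low genes are thus Ascl2 at one end and Cdkn1c, Slc22a18 and Phlda2 side by side, with Tspan32, Cd81, Tssc4 and Kcnq1ot1 between. Allelic origin was not measured by these arrays. From day 7 to day 9 Slc22a18 fell (-0.93 ± 0.19, adjusted p = 0.0178) and Osbpl5 rose (1.04 ± 0.11, adjusted p = 0.00226), and the other 6 neighbours did not pass.

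**Figure D4:**
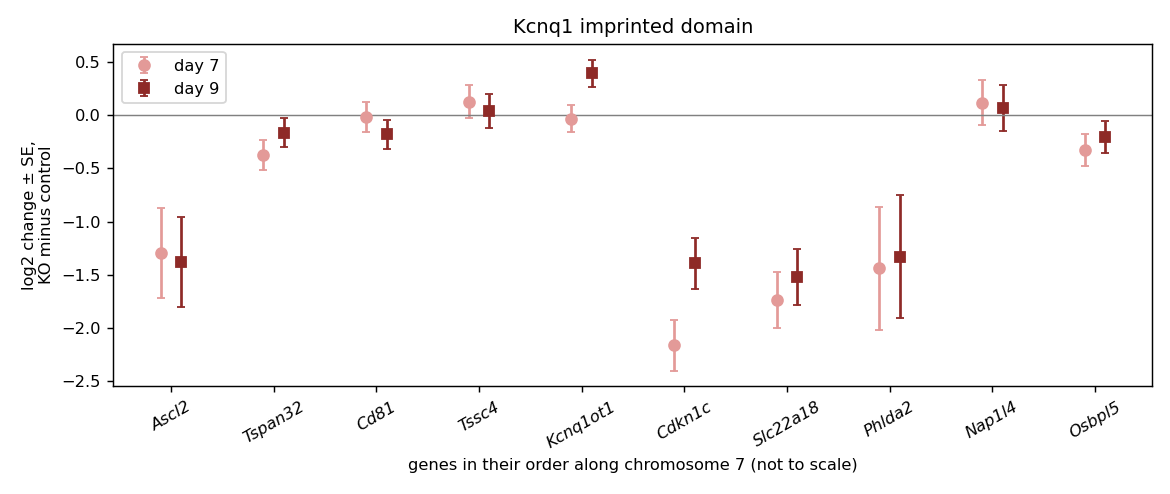
Log2 change ± SE, knockout (KO) minus control, on day 7 and day 9 for Ascl2, Phlda2 and their measured neighbours in the order along chromosome 7 (horizontal axis, not to scale). Ascl2, Cdkn1c, Slc22a18 and Phlda2 lie between -2.16 and -1.30, and the other genes between -0.38 and 0.39.

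The gene lists were chosen with earlier results of these data known, so their calls by genotype are a description. Among other trophoblast genes, 5 of 9 measured genes of giant cells and spongiotrophoblast were called lower in the knockout for the mean of both days and 0 higher (against 9.35% and 5.48% of all genes). Their median change was -0.75; 6 of the 9 had a negative change, and the highest was 0.44. Tpbpb, a spongiotrophoblast marker, was at -7.22 and -5.87 in knockout cells on day 7 and -6.93 and -6.35 on day 9, none well above background. Its control levels were -3.63 and -2.38 on day 7 and -2.37 and -1.43 on day 9. Set against the dimmest signals well above background it was at least 9.96-fold lower in the knockout, a bound that has no test. All 4 control arrays were above background. The adjusted p of 0.00699 (limma) belongs to the fitted change, which rests on knockout signals not well above background. Tpbpb passed the filter through control arrays alone; without it the count is 4 of 8.

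Plet1, a surface protein of early trophoblast, had a change of -1.59 ± 0.17 (adjusted p = 0.00725), Pcdh12, a protocadherin of glycogen trophoblast, -1.84 ± 0.35 (adjusted p = 0.0238) and Flt1, a receptor for vascular endothelial growth factor, -0.75 ± 0.15 (adjusted p = 0.0264). The fifth called gene was Gata2, at -0.75 ± 0.11 (adjusted p = 0.0144). Pcdh12 was well above background on 3 of 4 knockout arrays, so its size rests in part on the -6.22 of knockout day 9 replicate 2, which was not. With normexp background correction Pcdh12 was not called. Tpbpa, the best-known spongiotrophoblast marker, did not pass the filter. Leaving out single arrays gave 2 to 4 calls: 3 without control day 7 replicate 2, knockout day 7 replicate 2 or either control day 9 array, and 2 without knockout day 9 replicate 2. From day 7 to day 9, 2 of the 9 rose and 0 fell, against 9.19% and 12% of all genes.

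In the list of further stem cell and lineage factors 3 of 7 measured genes were called lower and 0 higher. Over all genes these shares were 9.35% and 5.48%. The list median was -0.18. Esrrb, an orphan nuclear receptor, had -1.30 ± 0.32 (adjusted p = 0.0449), Tead4, which acts upstream of Cdx2, -0.90 ± 0.21 (adjusted p = 0.0384) and Gata3 -0.71 ± 0.17 (adjusted p = 0.0381). Sox21 had 0.20 ± 0.18 and did not pass, and Eomes, a defining stem cell factor, did not pass the filter on dim probes. These 3 calls were close to the threshold: quantile normalization left 1, a median shift 0, and leaving out any 1 of the 8 arrays left 0 or 1. From day 7 to day 9 Gata3 and Klf5 were called higher (0.90 ± 0.17 and 1.21 ± 0.13) and Sox21 lower (-0.63 ± 0.18), against 9.19% and 12% of all genes. With quantile normalization, a median shift or normexp background correction Sox21 was not called, while Gata3 and Klf5 were.

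The syncytiotrophoblast and labyrinth list had 1 of 14 measured genes called lower and 0 higher, against 9.35% and 5.48% of all genes. Its median was -0.23. The called gene was Pparg, a nuclear receptor also active in fat cells. It was at -2.27 and -2.21 in knockout cells on day 7, against -0.85 and -0.98 in control cells. Its day 9 levels were -2.28 and -2.48 in knockout cells, against -1.15 and -1.18 in control cells, a change of -1.27 ± 0.10 over both days (adjusted p = 0.0042). Gjb2, a gap junction gene, had -0.85 ± 0.24, Ly6e, the receptor for syncytin A, 0.78 ± 0.29, and Slc16a3, a lactate transporter, 0.63 ± 0.69; none passed. The mean of Gjb2 joins unlike days. On day 7 it was at -1.50 and -2.02 in knockout cells, against 0.47 and -0.26 in control cells. On day 9 the genotypes overlapped, with 0.30 and -0.46 in knockout cells, against -0.19 and -0.29. Gjb2 was called lower with a replicate block and with the filter on all 8 arrays. Syna, the defining syncytin, did not pass the filter.

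Of 20 other placental Ceacam and Psg genes, 17 did not pass the filter and 3 were measured. Psg23, a pregnancy-specific glycoprotein gene, had a change of -0.53 ± 0.10 (adjusted p = 0.0247). Psg28 was not well above background on any knockout array and had a bound of at least 1.86-fold lower than in control cells, where 3 of 4 arrays were above. Its fitted change, not the bound, had an adjusted p of 0.00744 (limma). Psg28 passed the filter through control arrays alone. Psg21 had -0.18 ± 0.21 and did not pass. Psg and Ceacam genes are near copies of each other, so cross-hybridisation between them cannot be told apart from their own signal. With control day 7 replicate 1 left out 2 of the 3 were called lower, and with any other array left out 1 was.

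Of 9 measured keratin and adhesion genes that trophoblast shares with other epithelia, 7 were called lower in the knockout and 0 higher. Over all genes these shares were 9.35% and 5.48%. The list median was -1.47. Krt7 had a change of -1.98 ± 0.20 (adjusted p = 0.00696), Krt8 -1.57 ± 0.13 (adjusted p = 0.00468) and the adhesion gene Cdh3 -1.60 ± 0.31 (adjusted p = 0.0249). Cldn4, a tight junction gene, was well above background on 1 of 4 knockout arrays and 3 of 4 control arrays, and passed the filter through control arrays alone. It was called for the mean of both days (adjusted p = 0.0314, limma). On day 9 neither knockout array was above background, and its bound was at least 4.38-fold lower in the knockout. The fitted day 9 change was not called (adjusted p = 0.116, limma). The other 8 genes had 6 calls. The summed level of the 9 genes, in multiples of the array's 75th percentile, was 13.3 and 15.3 in knockout cells on day 7 and 13.2 and 14.7 on day 9. Control cells had 32.5 and 37.7 on day 7 and 36.3 and 38.8 on day 9, with no overlap. Krt18, a keratin of simple epithelia, made up 72.3% to 75.4% of the sum in knockout cells and 78.7% to 80.9% in control cells. These are shares of probe signal, not of transcripts. The sum of the other 8 genes ran from 3.49 to 3.81 in knockout cells and from 6.21 to 7.74 in control cells, also without overlap.

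Between days 1 of the 9 epithelial genes, Dsp, was called lower (-0.64 ± 0.09, adjusted p = 0.00526, limma) and 0 higher, against 12% and 9.19% of all genes. Leaving out single arrays left 3 to 7 genotype calls: 4 without control day 9 replicate 1 or knockout day 7 replicate 2, and 3 without either knockout day 9 array. The part of a change in epithelial cells in the values of the 7 trophoblast genes was not tested.

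Markers of the intended cell type moved with genotype and day as well. Of 13 motor neuron and neuron genes 8 were called lower in the knockout and 1 higher, against 9.35% and 5.48% of all genes. Their median was -0.63. From day 7 to day 9, 11 fell and 0 rose, against 12% and 9.19% of all genes. Slc5a7, the choline transporter, had a genotype change of -1.85 ± 0.28 (adjusted p = 0.0158), and Chat, which makes acetylcholine, -0.96 ± 0.17 (adjusted p = 0.0196). Slc18a3, the vesicular acetylcholine transporter, had -0.98 ± 0.16 (adjusted p = 0.0175), and Nefl, a neurofilament gene, -0.94 ± 0.15 (adjusted p = 0.0161). The gene called higher was Lhx3, named after its value was seen, at 0.91 ± 0.11 (adjusted p = 0.00995).

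The summed level of the 13 neuronal genes was 222 and 240.2 in knockout cells on day 7, against 290.1 and 330.4 in control cells. The sums on day 9 were 88.0 and 95.4 in knockout cells, against 188 and 138 in control cells. The genotypes did not overlap on either day. Without single arrays 0 to 9 of the 13 were called lower, with 3 or 4 in 5 cases, 9 with control day 9 replicate 2 left out, 1 with knockout day 9 replicate 1 left out and 0 with knockout day 9 replicate 2 left out. The part of neuronal changes in the trophoblast gene values was not tested.

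Calls for the mean of both days were also counted in lists for the other tissues in which the 9 genes act. Over all genes 9.35% were called lower and 5.48% higher. Of 7 measured endoderm and gut genes 0 were called in either direction by limma, with 3 lower and 0 higher at an unadjusted p under 0.05 (20.3% of all genes were lower by that measure); Hnf4a, a gut and liver factor, had -1.05 ± 0.30 and Cldn6 -0.93 ± 0.28. Of 7 heart and lateral plate mesoderm genes 1 was called lower: Tbx20, a cardiac T-box factor also made in hindbrain motor neurons, with -1.94 ± 0.16 (adjusted p = 0.00458). Hand2, the closest relative of Hand1, had 0.92 ± 0.38 and did not pass. Of 4 caudal axis genes 0 were called, with 2 lower and 0 higher at an unadjusted p under 0.05, and T and Cdx4 did not pass the filter.

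Of 7 germ cell genes 1, Dazl, was called higher (1.60 ± 0.23, adjusted p = 0.0139). Dazl was well above background on 4 of 4 knockout arrays and 2 of 4 control arrays, with neither control array above on day 9. Its size thus rests in part on control signals not well above background, and it was not called with normexp background correction. Neural crest genes had 2 of 7 called higher and 1 lower, against 5.48% and 9.35% of all genes. Called higher were Tfap2b, a relative of Tfap2c, at 3.12 ± 0.68 (adjusted p = 0.0324, limma) and Snai2 at 0.74 ± 0.16 (adjusted p = 0.0342). Tfap2b was at -1.96 and -3.31 in knockout cells on day 7, against -4.13 and -6.57 in control cells. Its day 9 levels were -2.67 and -1.56 in knockout cells, against -4.79 and -6.50 in control cells; 4 of 4 knockout arrays and 2 of 4 control arrays were well above background, and Tfap2b passed the filter through knockout arrays alone. Tfap2b and Tfap2c thus had opposite signs on both days, with no overlap between genotypes in either gene. Of 5 measured paternally expressed placental genes 1, Mest, was called higher at 0.66 ± 0.13 (adjusted p = 0.0239).

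**Figure D5:**
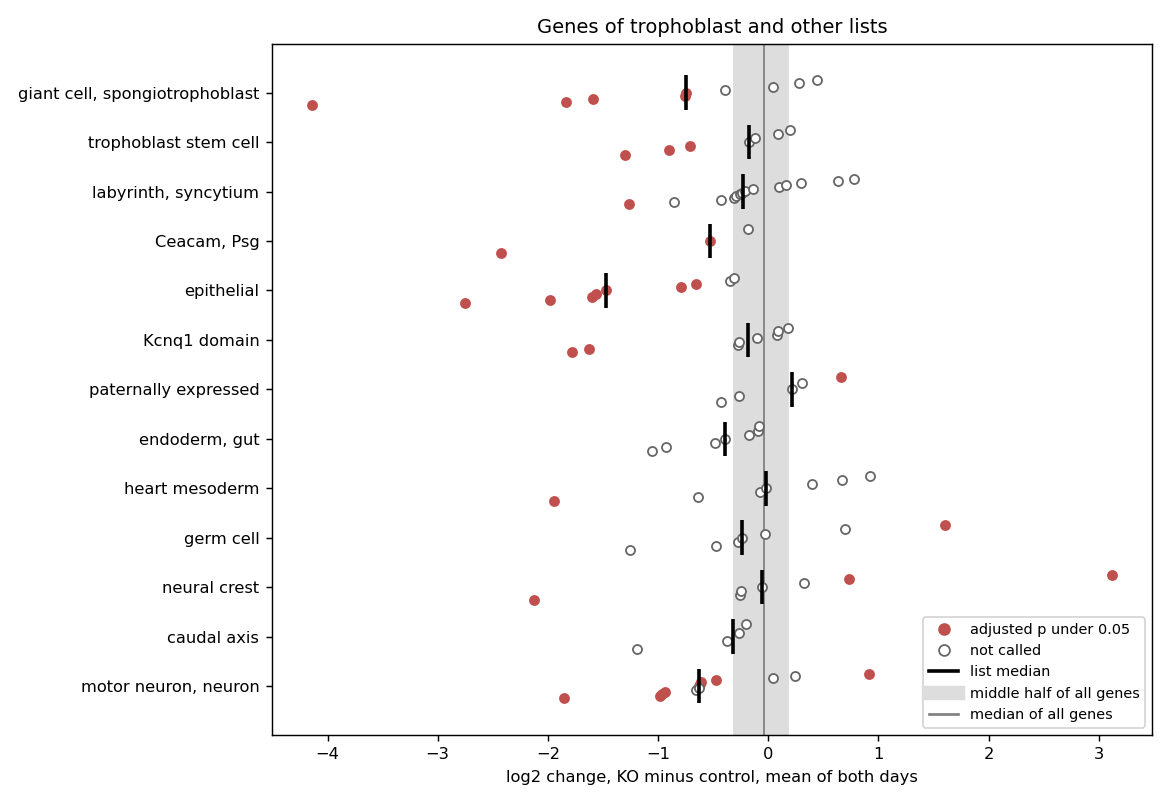
Log2 change, knockout (KO) minus control as the mean of both days (horizontal axis), for each measured gene of 13 lists (rows); filled points have an adjusted p under 0.05 and black bars are list medians. The grey band is the middle 50% of all genes; left of it lie 6 medians: epithelial, -1.47, giant cell and spongiotrophoblast, -0.75, neuronal, -0.63, Ceacam and Psg, -0.53, endoderm and gut, -0.39, and caudal axis, -0.32.

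Over the 8 arrays the pairwise correlations of the 7 genes ran from 0.20 to 0.95 (Pearson r, 21 pairs, median 0.73); they describe arrays that share 4 groups, so differences of genotype and day enter each of them. Among 15028 tested genes with a symbol, the profiles most like each gene had r between 0.97 and 0.99. Ascl2 was closest to Pigz, Msantd1 and Mthfd2l, Hand1 to Jakmip2, Sult1e1 and Esrp1, and Gcm1 to Cnfn, Mknk1 and Mup2. Plac1 was closest to Hs3st5, Gmcl1 and Khdrbs3, and Phlda2 to Limk1, Fam98c and Hook2. Tfap2c was closest to Zfp703, Tbc1d10b and 4931428F04Rik, and Ceacam13, over values mostly not well above background, to Ttc9b, Pde10a and BC051142.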

How the data were processed

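RNA was extracted with Trizol, treated with DNase and labelled with Cy3 (0.5 ug of RNA with an integrity number above 9), per the labels' protocols. All 8 arrays were on 1 slide with 1 scan. Per the submitters' processing notes, spots were quantified in Agilent Feature Extraction 10.5.1. The deposited signal of a spot is an intensity that was background-subtracted and detrended within its array and not scaled between arrays, per the file headers. A deposited table of log2 values by the authors has 8 columns with a median of 5.81, which correlate at 0.998 or more with the log2 intensities of their arrays; its offset is unknown and it served as an alternative.

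Of 62976 spots an array, 3671 control spots and 104 to 166 outlier spots were left out, and 0 were saturated. Spots of a probe were averaged as log2 signal minus the array's 75th percentile. Of 55681 probes 26300 found a symbol through their accession in a RefSeq table on GRCm38.p6, whose coordinates were not used since the arrays are annotated on mm9; promoter windows carry their own build. A probe was kept if well above background (a flag of the scanner software) on both arrays of at least 1 group, and the kept probe with the highest mean stood for its gene. That left 24632 genes, of which 11 had an array dropped as an outlier, none of them among the 9 genes.

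limma 3.58.1 in R 4.3.3 fitted 4 group means to all 8 arrays (lmFit and eBayes, two-sided, 4 residual and 2.53 prior degrees of freedom) with Benjamini-Hochberg adjustment over all genes tested and a threshold of 0.05. The script was tested on simulated data. A gene below background on all arrays of a group has a bound: the bright group's mean against, per array, the higher of its own signal and the dimmest signal well above background. With 2 arrays a group, the number of arrays limits the precision. Members and gene lists were chosen with earlier results of these data known. Named genes were the 9 members and up to 4 genes per list with the largest mean change between genotypes. The 3 most similar genes per member and defining markers that did not pass the filter were named by the same rule. Other genes called among 5 or fewer were named after their values were seen. Some genes that this rule picks are not reported here.

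Alternatives were quantile normalization, a median shift, normexp background correction (offset 50, on median foreground and background signals in place of the planned means), the authors' table, other filters, the mean of a gene's probes, a replicate block and leaving out each array, where the lone array left in a group is assumed to vary like the other groups. The 4 Gcm1 probes in turn and the gene list counts under each setting were added after seeing the data.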

Additional observations from a re-analysis of the deposited data

Results flagged for a closer look

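Ceacam13 had measured changes of opposite sign in the 2 genotypes between day 7 and day 9. The change was -0.78 in knockout cells, with all 4 arrays not well above background, and 1.26 in control cells, so that the knockout change minus the control change was -2.04 ± 0.58. Both knockout arrays were lower on day 9 than on day 7 and both control arrays were higher. Ceacam13 passed the filter through its control day 9 arrays alone. A rise in control cells and a negative difference are thus favoured by its inclusion. The interaction test over all genes gave an adjusted p of 0.777 (limma), and that contrast shares its arrays with those the genes were chosen on. Knockout values that are not well above background cannot be put in order, so the sign of the knockout change is not established.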

How the results depend on the processing

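All 7 genes were lower in the knockout on day 7, on day 9 and for the mean of both days under every setting run. Called genes on day 9 (2 in the report) were 0 with normexp, 0 with no filter on dim probes and 0 with a filter on all 8 arrays, which drops Hand1, Phlda2 and Ceacam13; leaving out 1 array gave 0 to 2, with 0 without control day 9 replicate 1 or either knockout day 9 array. For the mean of both days (4) normexp gave 2 and no filter 1; leaving out 1 array gave 2 to 4, with 2 without either knockout array of either day or control day 9 replicate 1. Between days (1) the filter on all 8 arrays and the fit with a replicate block each gave 2, adding Ascl2, and leaving out 1 array gave 1 to 2. On day 7 and for the difference of the knockout effects 0 genes were called under all settings, including 0 to 0 without single arrays; 1 of the 7 had an unadjusted interaction p under 0.05, as 6% of all genes had.

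Over all genes, the calls on day 7, day 9, mean of both days and between days were 53, 1347, 3653 and 5228. They were 21, 322, 1682 and 2908 with normexp, 0, 1, 220 and 2306 with no filter, and 102, 2031, 4797 and 6377 with the replicate block. The filter on all 8 arrays gave 188 on day 7 and the median shift 2046 on day 9. Leaving out single arrays gave 0 to 125, 7 to 804, 450 to 2717 and 2597 to 4277. The median shift moved the median of all genes on day 9 to 0.21 (against -0.02 with the 75th percentile), on day 7 to 0.08 (against -0.05), over both days to 0.14 (against -0.04) and between days to -0.0047 (against -0.12); relative to these shifts the genes' medians were as far below as before. Normexp reduced the mean change of Ceacam13 to -0.54 and of Hand1 to -0.92.

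Genes called lower for the mean of both days, 5 for giant cells and spongiotrophoblast, 7 epithelial, 8 neuronal and 3 stem cell, were 2, 3, 0 and 0 with no filter. The median shift left 4 neuronal and 0 stem cell genes, normexp 0 stem cell genes, quantile normalization 1, and the filter on all 8 arrays 3 giant cell and spongiotrophoblast genes.

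Deviations of same-numbered arrays correlated at 0.46 between knockout and control day 7. Control day 9 had 0.31 with knockout day 7 and 0.25 with control day 7. Knockout day 9 had -0.02 with knockout day 7, 0.04 with control day 7 and -0.25 with control day 9. Replicate numbers were thus not shown to pair all the samples, and the main fit has no replicate term. With the replicate block 3 members were called on day 9 and 5 for the mean of both days. Signal near background limits Ceacam13, Hand1 and Phlda2 most.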
